A study of Mus musculus with 18 samples.

Results

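The comparison described here is bleomycin against sham at 2 months of age in mouse lung endothelial cells (ECs), measured by ATAC-seq, a method in which the Tn5 transposase inserts adapters into open chromatin. It comprised 4 Young Bleo and 5 Young Sham mice of the 18 mice of the series, chosen by their labels, and each mouse gave 1 peak list. Young Bleo mice received a single intratracheal dose of bleomycin at 1 U/kg and Young Sham mice received PBS, and lungs were taken on day 30. All mice were FVB and carried the Col1α1-GFP transgene, a reporter of collagen-producing cells, and the study used both sexes. About 50000 cells per mouse were sorted as CD45-, CD326-, GFP- and CD31+, so that leukocytes, epithelial cells and reporter-positive fibroblasts were gated out and every kind of endothelium was kept together. The remaining 9 mice were 18 months old and served to define the regions and the number of strongest peaks, and for a short comparison at the end.

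Peaks on chromosomes 1 to 19, X and Y of all 18 lists were merged into 47338 consensus regions with a peak in at least 2 lists. Both of these were compared: whether a mouse had a peak in a region, and the rank of its strongest peak there. The rank runs from 0 (no peak) to 100 (the strongest peak of that list) by the -log10 p of the peak caller, and differences between ranks are given in points. Presence was called at an unadjusted p of at most 0.05 by Fisher's exact test, and rank at an adjusted p of at most 0.05 by limma. A region counted as opened or closed when both tests called it in the same direction, and was assigned to the gene with the nearest transcription start site (TSS), which need not be the gene it acts on. The lists hold sorted bulk cells, so a region open in fewer cells and a region less open in each cell cannot be told apart.

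Bleomycin injures the alveolar epithelium and the capillaries of the lung and is followed by fibrosis that resolves in young mice. Lung capillaries hold 2 main cell types, general capillary cells that serve as progenitors and aerocytes specialised in gas exchange. Endothelial enhancers are typically bound by ETS factors such as ERG together with SOX, forkhead, KLF and AP-1 family members, and an ATAC-seq peak away from a promoter often marks such an element.

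Among regions that ranked differently outside promoters, windows around the strongest summit differed in the short motifs they held, and a few are shown here because the results below turn on them. Each window is 200 bp of the RefSeq mouse genome, build GRCm38.p6 (mm10, C57BL/6J), plus strand, and capitals mark every match on either strand to CAGGAAG (ETS), CCATTGT (SOX), TGTTTAC (forkhead), TGANTCA (AP-1), GGGTGTG (KLF), TATTTATA (MEF2), GGAATG (TEAD) or CCANNAGGG (CTCF-type). The mice were FVB, whose own sequence may differ from this reference. The windows lie near genes of the gene lists described below and were called with all peaks and with the strongest peaks, with the smallest p. The first 3 ranked higher in Young Bleo and hold the SOX motif, at Mef2c (a myocyte enhancer factor active in endothelium), Palld (the actin-binding protein palladin) and Smad1 (a transducer of BMP signals).
Mef2c, 143 kb upstream, chr13:83360490-83360689: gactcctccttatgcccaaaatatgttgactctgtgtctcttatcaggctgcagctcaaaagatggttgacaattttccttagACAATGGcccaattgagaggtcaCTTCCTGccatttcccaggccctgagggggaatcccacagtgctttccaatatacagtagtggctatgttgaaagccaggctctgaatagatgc
Palld, 70.5 kb downstream of the TSS, chr8:61832080-61832279: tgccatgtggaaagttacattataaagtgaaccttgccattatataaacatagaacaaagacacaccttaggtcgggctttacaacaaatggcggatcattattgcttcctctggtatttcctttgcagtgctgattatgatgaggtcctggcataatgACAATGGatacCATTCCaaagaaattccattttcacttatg
Smad1, 49.0 kb downstream of the TSS, chr8:79350326-79350525: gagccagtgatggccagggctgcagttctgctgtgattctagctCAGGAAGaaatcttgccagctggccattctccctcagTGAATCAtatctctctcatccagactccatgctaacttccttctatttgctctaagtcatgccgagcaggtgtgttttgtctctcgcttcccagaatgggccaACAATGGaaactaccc

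The next 4 windows also ranked higher in Young Bleo. The first 3 hold the AP-1 motif and lie at Pgf (placental growth factor), Ets1 (an ETS factor) and Cdh13 (T-cadherin, a receptor for adiponectin), and the last holds the KLF motif far upstream of Bmp2 (a bone morphogenetic protein). The Cdh13 window held matches to KLF, AP-1 and SOX together.
Pgf, 15.5 kb upstream, chr12:85192763-85192962: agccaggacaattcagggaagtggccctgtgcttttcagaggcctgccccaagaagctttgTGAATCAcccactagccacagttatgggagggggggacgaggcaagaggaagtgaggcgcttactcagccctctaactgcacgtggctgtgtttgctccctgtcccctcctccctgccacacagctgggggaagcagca
Ets1, 40.8 kb upstream, chr9:32595215-32595414: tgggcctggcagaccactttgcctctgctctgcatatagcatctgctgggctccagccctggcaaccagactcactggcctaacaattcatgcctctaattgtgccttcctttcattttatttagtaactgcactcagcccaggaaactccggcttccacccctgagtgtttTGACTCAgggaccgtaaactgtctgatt
Cdh13, 161 kb downstream of the TSS, chr8:118444785-118444984: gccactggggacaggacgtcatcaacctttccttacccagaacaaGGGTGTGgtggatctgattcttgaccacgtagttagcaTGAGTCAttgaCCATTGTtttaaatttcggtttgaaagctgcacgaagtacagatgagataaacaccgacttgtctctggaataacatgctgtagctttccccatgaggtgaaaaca
Bmp2, 201 kb upstream, chr2:133351306-133351505: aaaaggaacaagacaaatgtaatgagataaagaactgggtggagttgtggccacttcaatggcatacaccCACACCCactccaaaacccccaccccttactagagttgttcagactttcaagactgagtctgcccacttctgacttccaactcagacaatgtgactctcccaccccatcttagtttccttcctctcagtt

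The last 4 windows ranked lower in Young Bleo and hold the forkhead motif, at Vcam1 (a leukocyte adhesion molecule), Cdkn2b (the cell cycle inhibitor p15), Klf4 (a shear-responsive factor) and Cd36 (a fatty acid translocase). The Cdkn2b window also held AP-1, ETS and KLF matches.
Vcam1, 19.1 kb upstream, chr3:116148736-116148935: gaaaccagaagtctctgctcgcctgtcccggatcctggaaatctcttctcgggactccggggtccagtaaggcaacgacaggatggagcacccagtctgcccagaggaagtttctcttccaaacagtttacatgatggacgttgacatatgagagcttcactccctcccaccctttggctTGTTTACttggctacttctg
Cdkn2b, 175 kb upstream, chr4:89486007-89486206: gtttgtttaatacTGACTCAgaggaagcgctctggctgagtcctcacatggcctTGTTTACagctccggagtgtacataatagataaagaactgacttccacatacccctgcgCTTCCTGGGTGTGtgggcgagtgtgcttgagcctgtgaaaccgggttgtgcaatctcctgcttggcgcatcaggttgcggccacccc
Klf4, 550 kb upstream, chr4:56082544-56082743: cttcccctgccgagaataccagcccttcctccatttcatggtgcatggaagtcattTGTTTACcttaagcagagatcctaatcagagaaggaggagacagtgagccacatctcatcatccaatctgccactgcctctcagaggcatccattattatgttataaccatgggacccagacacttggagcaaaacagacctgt
Cd36, 5.37 kb downstream of the TSS, chr5:17883509-17883708: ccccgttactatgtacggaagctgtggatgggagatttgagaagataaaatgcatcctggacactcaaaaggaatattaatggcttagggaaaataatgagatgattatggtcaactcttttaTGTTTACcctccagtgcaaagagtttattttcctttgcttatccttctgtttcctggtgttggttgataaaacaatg

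To ask which loci differed after injury, every consensus region was tested. By presence, 1885 of 47338 regions (3.98%) had a peak more often in Young Bleo and 928 (1.96%) less often. With 4 and 5 mice the smallest p of this test is 0.00794, and after Benjamini-Hochberg adjustment no region passed, the smallest adjusted p being 0.535. By rank, 3018 of 43891 regions (6.88%) were higher in Young Bleo and 1646 (3.75%) were lower, and 11467 had an unadjusted p of at most 0.05. Both tests called 759 regions opened (1.73%) and 316 closed (0.720%).

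The excess of higher over lower calls depended on which peaks were ranked. When each list was reduced to its strongest peaks, as many as the shortest of the 18 lists held, 2693 of 24975 regions (10.8%) ranked higher and 2643 (10.6%) lower, so that 50.5% of the calls were higher against 64.7% with all peaks. Calls of both settings shared 1907 higher and 1125 lower regions, and none turned. The median difference over all tested regions moved from 0.859 to -0.204 points. Without Young Sham 5, the shortest list of the 9, 2546 regions were higher and 2526 lower, and without Young Bleo 4 the counts were 3921 and 1472.

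**Figure D1:**
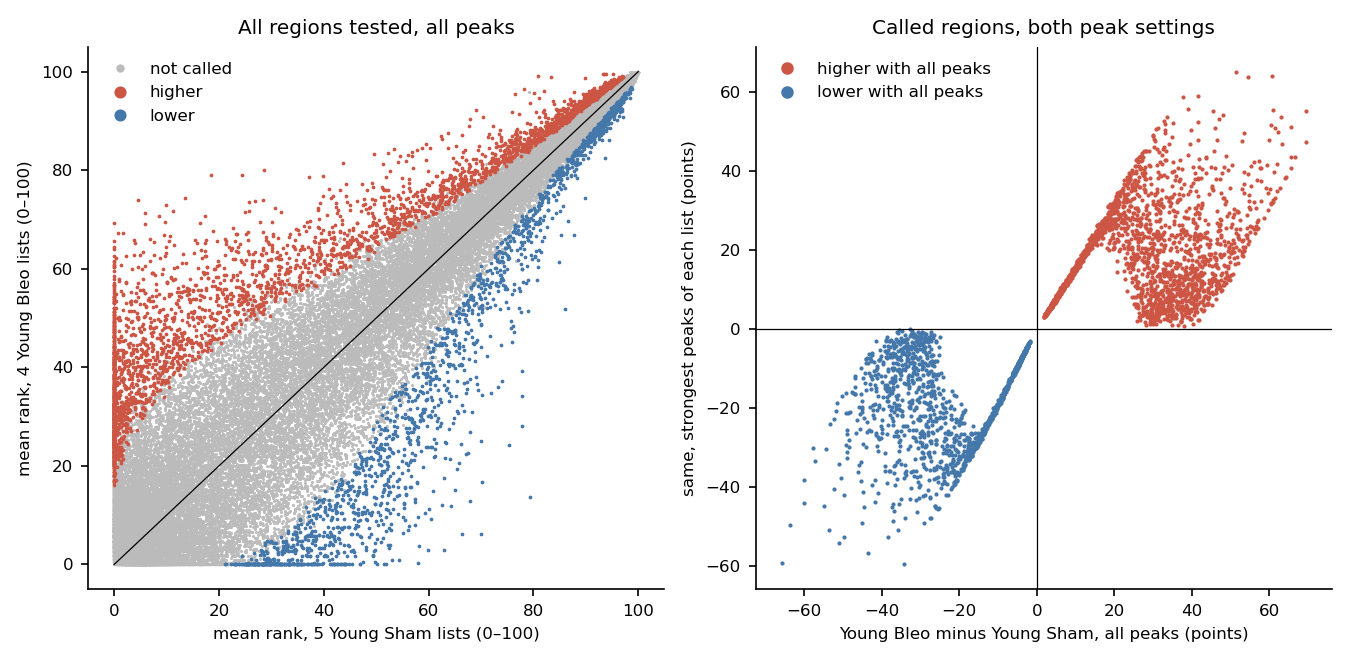
Mean rank of each tested region in the 5 Young Sham (x axis) and 4 Young Bleo lists (y axis, both 0 to 100), with called regions in red (higher) and blue (lower), and, on the right, the rank difference of called regions with all peaks (x axis, points) against that on the strongest peaks (y axis, points). The 3018 higher regions lie above the diagonal and the 1646 lower regions below it, and no called region lies on the opposite side in the right panel.

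The lists were similar in size. Young Bleo lists held 36699 ± 3079 peaks (SD, n = 4) and Young Sham lists 35238.8 ± 3500 (SD, n = 5), a difference of 1460 peaks with p = 0.524 by a two-sided exact permutation test, and the covered length was 15.7 ± 1.19 Mb and 15.2 ± 1.66 Mb (exact permutation p = 0.667). Promoters of 11 or 12 of 12 pan-endothelial genes, including Pecam1, Cdh5 and Erg, held a peak in every list, and none of 5 epithelial and none of 7 leukocyte genes did. Of 5 fibroblast genes only Pdgfra had a promoter peak, in every list, with none at Col1a1, Col1a2, Dcn or Tcf21. Of 4 pericyte and smooth muscle genes, Myh11 had one in every list and Kcnj8 in 2 of 4 Young Bleo and 1 of 5 Young Sham, whereas Pdgfrb and Cspg4 had none. The promoters of the Y-linked genes Ddx3y, Eif2s3y and Uty had peaks in all 9 lists, and 43 of 1041 X-linked regions (4.13%) were called higher and 71 (6.82%) lower.

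Treatment was largely confounded with what appears to be the sequencing lane. It was read from a code carried in each list's name, and neither the labels nor the study's methods name a lane, so that it may mean something else. By this code Young Bleo 1 to 3 were in lane 7, and Young Bleo 4 and all 5 Young Sham in lane 8. Lane and treatment cannot be told apart for the first 3 mice, and with lane as a term, which leaves Young Bleo 4 against the 5 Young Sham, limma called 10 regions higher and 6 lower. All the named regions called by rank lost their call with lane as a term. Over the named regions called higher, which were chosen with these mice, the median difference was 33.7 points and 23.7 with lane as a term, where 13 were at least as large and 14 under 50% as large. Over the 55 named regions called lower the medians were -34.2 and -26.3 points, with 20 at least as large and 4 under 50%. At Vcam1 the difference was -51.0 points with lane as a term against -50.4 without, and at Hspg2 59.2 against 60.8 (adjusted p with lane = 0.102 and 0.0887), whereas at Alg10b it was 52.5 against 69.3 and at Lrg1 0 against 39.6. Young Bleo 4 was thus the injured mouse with the lane code of the sham mice. Of the 986 regions with a peak in 3 of 4 Young Bleo and 0 of 5 Young Sham, Young Bleo 4 was the mouse without a peak in 629 (63.8%). The rank of Young Bleo 4 is the last of the 4 wherever ranks of single mice are given below.

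The 12 most clearly opened regions differed by 60.5 to 69.3 points. In 8 of them no Young Sham list had a peak, and in the other 4 a single list had one. The strongest difference was 115 kb upstream of Alg10b, a glucosyltransferase of N-glycan synthesis, at chr15:90109410-90110003. Its rank was 0 in all 5 Young Sham and 73.6, 76.2, 75.0 and 52.5 in Young Bleo 1 to 4, a difference of 69.3 points (SE 7.54, adjusted p = 1.99e-05, and 0.000244 on the strongest peaks). Young Bleo 4 was the lowest of the 4 and still far from the sham mice. In an intron of Ndrg1, a stress- and hypoxia-responsive gene, a region 17.7 kb downstream of the TSS ranked 1.48 in Young Sham 1, 0 in the other sham lists, and 63.6, 65.6, 69.7 and 50 in Young Bleo (61.9 points, SE 7.48, adjusted p = 5.28e-05). Further opened regions lay in Kank2, a regulator of focal adhesions (66.7 points), next to Prnd, the prion-like protein doppel (61.5 points), and upstream of Tnfrsf8, which encodes CD30 (60.5 points).

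**Figure D2:**
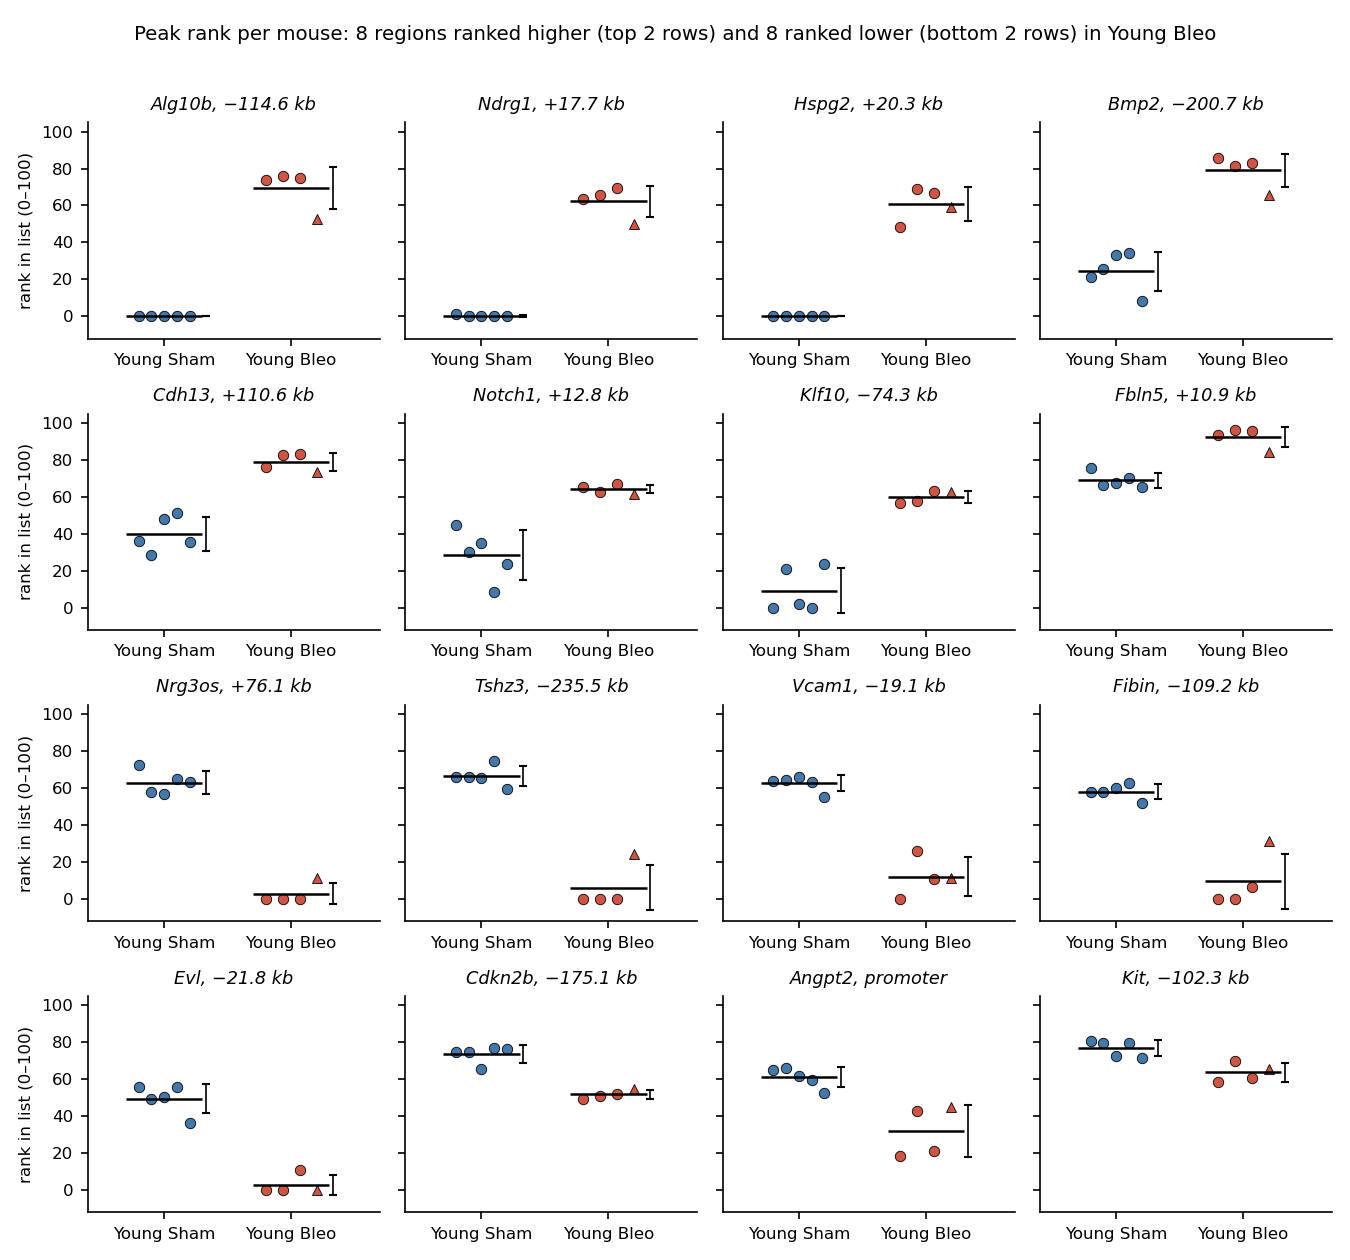
Rank in list (0 to 100, y axis) of each mouse at 8 regions ranked higher and 8 ranked lower in Young Bleo, named by nearest TSS and distance, with Young Sham in blue and Young Bleo in red (triangle, Young Bleo 4), the mean as a line and the SD as a bar. In the 16 panels, picked from the called regions, the groups do not overlap, and in 11 of them the triangle is the red point nearest to the sham mice. Over all calls the groups did not overlap in 2274 of 3018 higher and 1193 of 1646 lower regions. All of these regions were called for their difference, and the share without overlap over all tested regions was not computed.

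Genes of the vascular basement membrane, the matrix sheet on which ECs rest, had 15 regions higher and 1 lower of 100 tested (15% and 1.00%, against 6.88% and 3.75% of all regions), and their median difference was 3.81 points against 0.859. On the strongest peaks 12 of 53 were higher and none lower, where 10.8% and 10.6% of all regions were. These 2 shares are the background of every count on the strongest peaks below. Those of all regions were 5.82% and 5.77% without Young Sham 5, and 9.05% and 3.40% without Young Bleo 4. The 15 higher regions belonged to 9 genes. Of these genes, Hspg2 (4 regions), Lama4 (2), Col4a1 (2) and Sparcl1 (1) are also genes that the study names from the same mice. The share of this list is therefore not independent evidence of direction. At Hspg2, which encodes perlecan, 4 regions were higher. The one 20.3 kb into the gene (chr4:137488853-137489359, intron) had no peak in any Young Sham and ranked 48.3, 69.0, 66.8 and 59.2 in Young Bleo (60.8 points, SE 7.58, adjusted p = 6.55e-05). Here Young Bleo 4 lay within the range of the other 3. The Hspg2 promoter was higher by 12.4 points (adjusted p = 0.00434), an intronic region at 15.3 kb by 25.3 points (adjusted p = 0.00436) and another at 9.71 kb by 45.9 points (adjusted p = 0.00278, and 0.059 on the strongest peaks), with a peak in 4 of 4 Young Bleo and 0 of 5 Young Sham.

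The laminin and collagen IV genes moved the same way by smaller steps. The promoter of Lama4, the laminin alpha chain of vessels, was higher by 23.1 points (SE 5.53, adjusted p = 0.0107) and an intronic region of Lama4 by 37.2 points, the latter not on the strongest peaks (adjusted p = 0.639). Col4a1, a chain of collagen IV, had 2 higher regions, 27.7 and 82.1 kb upstream within introns of the divergent neighbour gene, by 20.1 and 33.2 points (adjusted p = 0.0295 and 0.0132). Col18a1, the precursor of endostatin, was higher 16.5 kb upstream by 47.2 points (adjusted p = 0.000788), and Sparcl1, a matricellular protein, in an intron by 40.7 points, with peaks in 4 of 4 and 0 of 5 lists, again not on the strongest peaks (adjusted p = 0.373). The lower region lay in Nid1, which encodes nidogen (-28.7 points, adjusted p = 0.0374).

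**Figure D3:**
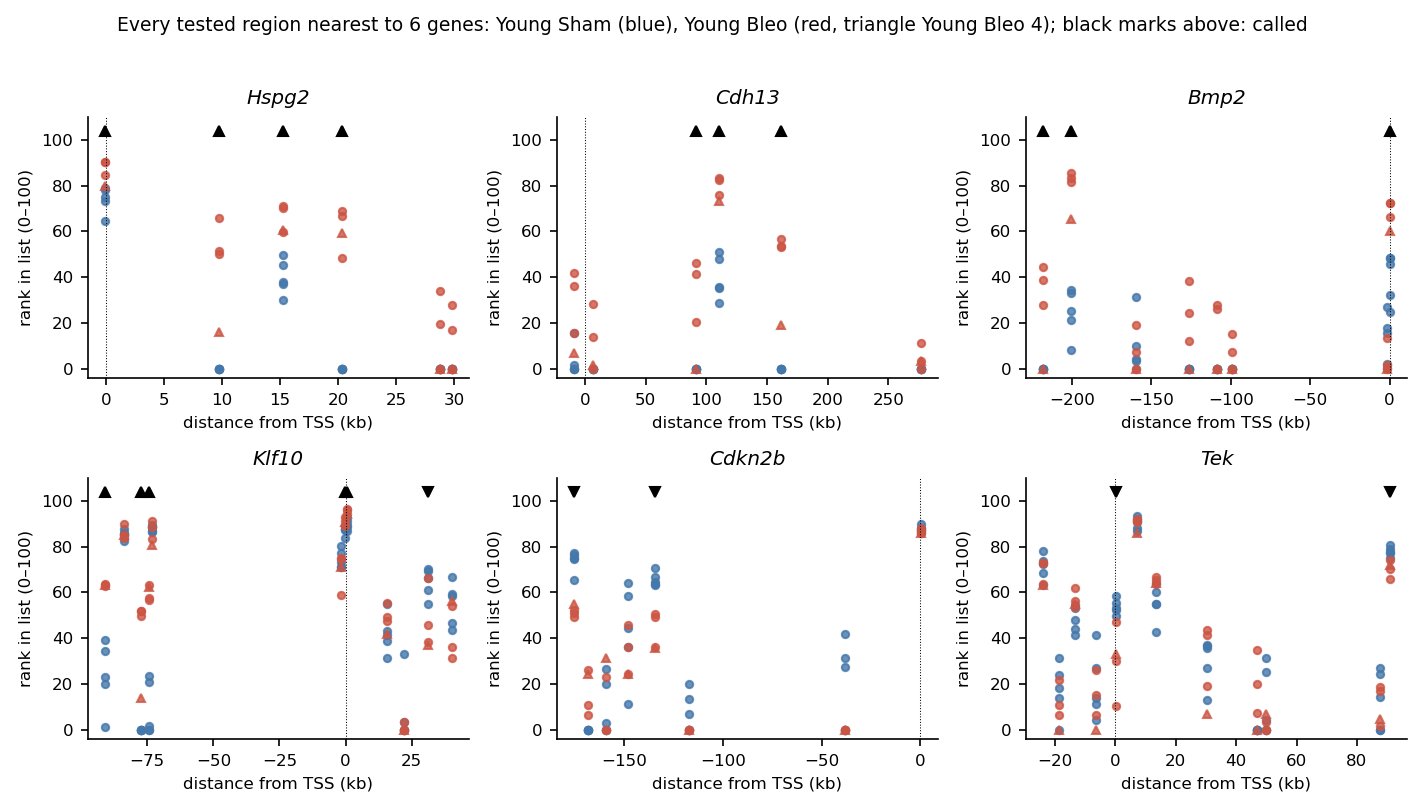
Rank in list (0 to 100, y axis) of every tested region nearest to 6 genes by its distance from the TSS (kb, x axis), with 1 point per mouse, Young Sham in blue and Young Bleo in red (triangle, Young Bleo 4). Black triangles above mark regions called higher (pointing up) or lower (pointing down): 4 of Hspg2 and 3 of Bmp2 and Cdh13 point up, both called regions of Cdkn2b and of Tek point down, and Klf10 has 5 up and 1 down.

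Genes of BMP and TGF-beta signalling had 21 regions higher and 9 lower of 168 (12.5% and 5.36%, median 0.910 points), in both directions above the share of all regions. Without Young Sham 5 the counts were 16 and 17, and on the strongest peaks 18 and 16 of 96. The ligand Bmp2 had the clearest region of the group, 201 kb upstream (chr2:133351105-133351872). It ranked 21.2, 25.5, 33.3, 34.2 and 8.19 in Young Sham and 85.6, 81.5, 83.2 and 65.6 in Young Bleo (54.5 points, SE 6.27, adjusted p = 3.32e-05, and 1.4e-05 on the strongest peaks). The Bmp2 promoter was also higher, by 27.9 points (adjusted p = 0.0035). Among the receptor-activated transducers, Smad5 was higher 40.7 kb upstream by 53.4 points (adjusted p = 0.000324), Smad1 by 33.4 points in an intron (adjusted p = 0.0015) and Smad3 by 14.2 points at its promoter (adjusted p = 0.00886). The target Id3, an inhibitor of DNA binding, was higher 4.28 kb downstream of the TSS by 7.70 points (adjusted p = 0.00186). Lower regions lay at Inhba, an activin subunit (-13.2 points, adjusted p = 0.00591), at Smad7, an inhibitor of the pathway (-31.0 points, adjusted p = 0.0198), and at Eng, the co-receptor endoglin (-9.29 points, adjusted p = 0.0457).

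Notch signalling genes had 9 regions higher and 2 lower of 63 (14.3% and 3.17%, median 3.67 points). The receptor gene Notch1 was higher in an intron 12.8 kb from the TSS (chr2:26490671-26491363), where Young Sham ranked 44.9, 29.96, 34.8, 8.55 and 23.8 and Young Bleo 65.4, 62.8, 66.7 and 61.8 (35.8 points, SE 6.81, adjusted p = 0.00211). All 4 injured mice lay within a narrow band above the sham mice. The ligands Jag1, Jag2 and Dll1 each had a higher region, by 36.3 points in an intron, 13.4 points at the promoter and 10.1 points at the promoter. The target Hes1 was higher at 3 regions, by 9.26, 37.2 and 4.91 points. The Jag1 region and the second of Hes1 were weak peaks and did not pass on the strongest peaks (adjusted p = 0.325 and 0.263). Lfng, a glycosyltransferase that modifies Notch, was lower 10.4 kb upstream (-21.6 points, adjusted p = 0.0109).

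Arterial markers had 13 regions higher and 1 lower of 99 (13.1% and 1.01%, median 1.36 points), 10 and 3 of 49 on the strongest peaks (median 0.119 points), and 11 and 3 of 96 within 50 kb. In an intron of Fbln5, an elastic fibre protein (chr12:101807311-101807956), Young Sham ranked 75.6, 66.3, 67.7, 70.3 and 65.4 and Young Bleo 93.6, 96.1, 95.4 and 84.0 (23.3 points, SE 2.42, adjusted p = 1.33e-05). This region had a strong peak in every mouse. Sox17, an arterial transcription factor, was higher 46.9 kb upstream (40.4 points), and Efnb2, the arterial ephrin, 254 kb from its TSS (34.1 points). The gap junction gene Gja5 was lower in an intron, by -40.2 points (adjusted p = 0.00356), and higher 6.87 kb upstream, by 9.26 points. The Sox17 region and the Gja5 intron did not pass on the strongest peaks (adjusted p = 0.197 and 0.276). Venous markers had 8 regions higher and 1 lower of 64 (12.5% and 1.56%, median 2.46 points), but on the strongest peaks 3 were higher and 4 lower of 29, and 6 and 5 of 64 without Young Sham 5. The promoter of Lrg1, a secreted modulator of TGF-beta signalling, ranked 0 in every Young Sham and in Young Bleo 4, and 54.7, 62.3 and 41.4 in Young Bleo 1 to 3 (39.6 points, adjusted p = 0.0153, and 0.0947 on the strongest peaks). In the injured mouse with the lane code of the sham mice, the Lrg1 promoter therefore had no peak.

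Shear-responsive genes of the KLF group had 17 regions higher and 3 lower of 99 (17.2% and 3.03%, median 3.39 points), and 18 and 3 of 63 on the strongest peaks. Klf10, a TGF-beta-inducible factor, had 5 higher and 1 lower region. The one 74.3 kb upstream (chr15:38374817-38375203) ranked 0, 20.9, 1.72, 0 and 23.7 in Young Sham and 56.7, 57.6, 63.3 and 62.4 in Young Bleo (50.7 points, SE 7.78, adjusted p = 0.000393), and Young Bleo 4 was among the highest. Smaller differences lay near the promoters of Klf10 (3.98 points), Nr4a1, an immediate-early nuclear receptor (4.19 points), Dusp1, a MAP kinase phosphatase (4.43 points), Edn1, endothelin-1 (7.92 points), and Thbd, thrombomodulin (7.70 points). Klf2, the main flow-induced factor, was higher 10.6 and 8.0 kb upstream by 24.2 and 32.9 points (adjusted p = 0.0373 and 0.0408). Klf4 was lower at both its called regions, by -27.6 and -34.95 points, the second not on the strongest peaks (adjusted p = 0.173). AP-1 and ATF factor genes had 7 regions higher and 1 lower of 61 (11.5% and 1.64%, median 2.34 points), and 11 and 3 of 37 on the strongest peaks. Fos and Jun were higher at their promoters by 6.17 and 2.93 points, Jund within its transcribed sequence by 2.51 points and Junb 1.28 kb upstream by 15.3 points. The lower region lay 59.0 kb from Fos (-24.1 points, adjusted p = 0.0387).

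**Figure D4:**
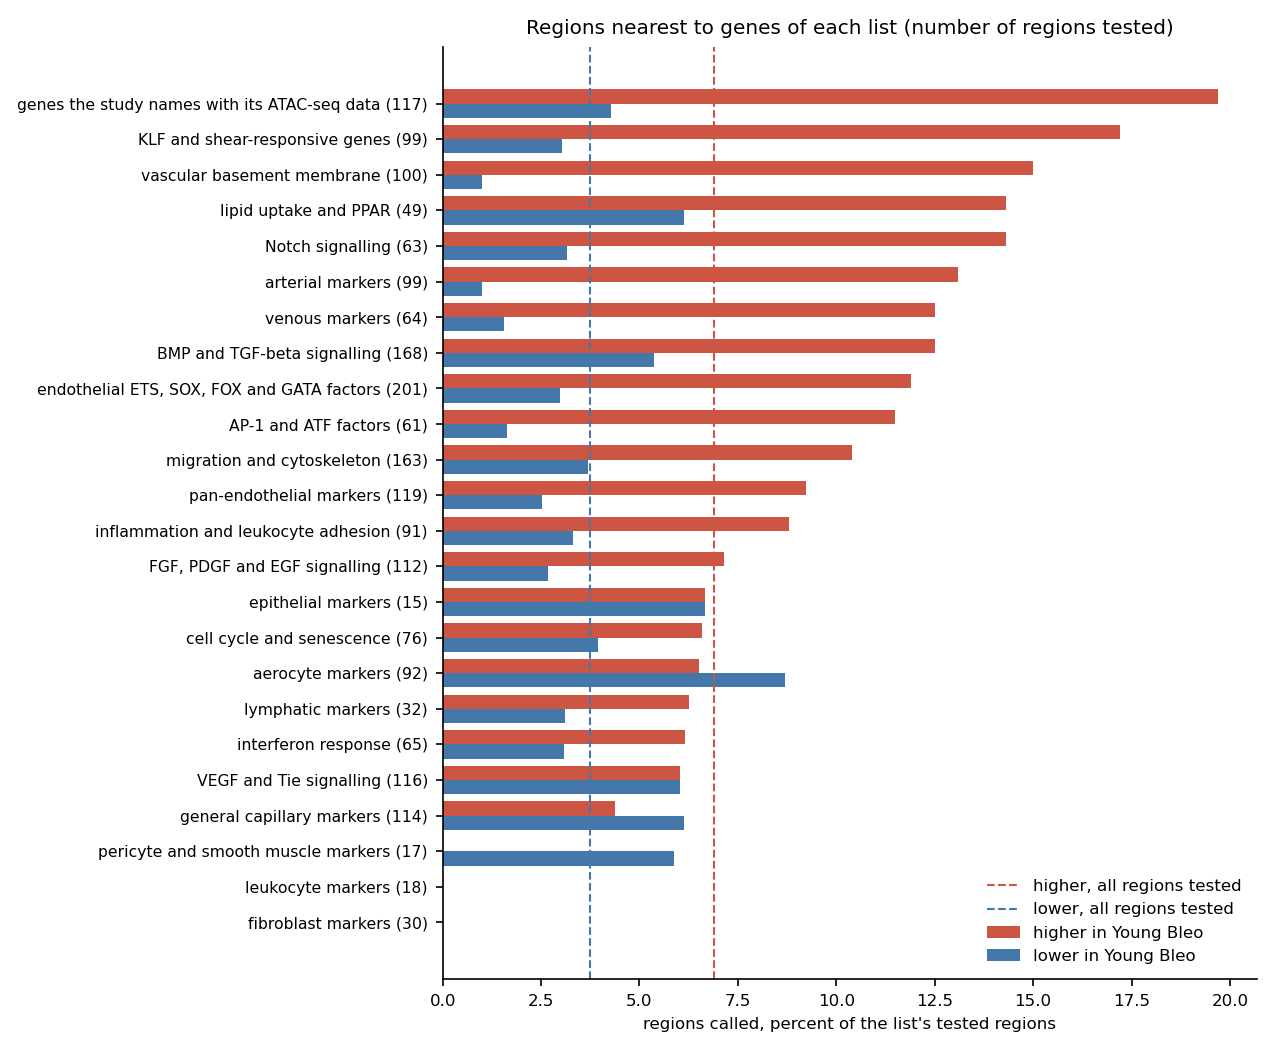
Percent of the tested regions nearest to the genes of each list that were called higher (red) or lower (blue) in Young Bleo, with the number of regions in brackets and dashed lines at the shares of all tested regions. Shear-responsive, basement membrane, lipid, Notch and arterial genes stand to the right of the higher line. By nearest TSS, general capillary cells, aerocytes and VEGF and Tie signalling have at least as many lower as higher regions. They have fewer lower than higher regions when those within 50 kb are counted. The list named by the study was chosen on these samples and shares genes with other lists.

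Genes of endothelial ETS, SOX, forkhead and GATA factors had 24 regions higher and 6 lower of 201 (11.9% and 2.99%, median 1.32 points). On the strongest peaks 20 were higher and 15 lower (15.9% and 11.9%, against 10.8% and 10.6% of all regions), so that the lower share passed from below that of all regions to above it. Foxc1, a forkhead factor of vessel development, had 5 higher regions, 3 of them in introns of the neighbouring Gmds, the largest by 54.7 points (adjusted p = 0.000296). Ets1 was higher 10.6 kb into the gene by 45.9 points and 40.8 kb upstream by 50.3 points (adjusted p = 0.000804 and 0.00132), and lower 65.6 kb from its TSS by -32.2 points (adjusted p = 0.0155). At Mef2c, the region 143 kb upstream whose window is printed above ranked 53.4, 36.8, 23.8, 34.2 and 38.9 in Young Sham and 73.0, 66.95, 72.2 and 66.6 in Young Bleo (32.3 points, SE 5.57, adjusted p = 0.00102). All 4 Young Bleo ranks at Mef2c lay above the highest sham rank. Gata2, a factor of endothelial and blood development, was lower 3.09 kb upstream by -35.4 points (adjusted p = 0.00604).

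Genes of migration and the cytoskeleton had 17 regions higher and 6 lower of 163 (10.4% and 3.68%, median 2.78 points). Cdh13 had 3 higher regions. The first lay 110594 bp into the gene (chr8:118393822-118394588, intron) and ranked 35.9, 28.7, 48.1, 51.2 and 35.4 in Young Sham and 76.1, 82.4, 83.4 and 73.4 in Young Bleo (38.9 points, SE 4.89, adjusted p = 6.67e-05). The second, 161 kb from the TSS, had no sham peak and ranked 53.0, 53.4, 56.6 and 19.2 in Young Bleo (45.6 points, adjusted p = 0.00187). Young Bleo 4 followed the other 3 at the first Cdh13 region and was far below them at the second. Palld was higher 5.94 kb upstream by 46.5 points and lower 61.0 kb upstream by -21.8 points. Evl, an actin-polymerising protein of the Ena/VASP family, was lower in an intron 21.8 kb from the nearest Evl TSS, with ranks of 55.6, 49.4, 50.7, 55.9 and 36.3 in Young Sham and 0, 0, 10.8 and 0 in Young Bleo (-46.9 points, SE 7.61, adjusted p = 0.000623).

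Genes of lipid uptake and PPAR signalling had 7 regions higher and 3 lower of 49 (14.3% and 6.12%, median 2.03 points). The promoter of Pparg, a nuclear receptor of fatty acid metabolism, was higher by 37.9 points (SE 8.42, adjusted p = 0.00634), and Fabp4, a fatty acid binding protein of capillaries, 5.27 kb upstream by 48.4 points (adjusted p = 0.000982). Cd36 was lower at both its called regions (-28.1 and -26.2 points), as was the coactivator gene Ppargc1a in an intron (-7.94 points, adjusted p = 0.00621). Genes of FGF, PDGF and EGF signalling had 8 regions higher and 3 lower of 112 (7.14% and 2.68%, median 0.953 points), close to all regions. Dusp10, a phosphatase of stress kinases, was higher by 49.9 points (adjusted p = 0.000511) and the ligand gene Pdgfb by 48.8 points 22.6 kb upstream (adjusted p = 0.00182), and the promoter of Pdgfd was lower by -5.25 points (adjusted p = 0.00386).

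VEGF and Tie signalling genes had 7 regions higher and 7 lower of 116 (6.03% each, median 0.217 points), 5 and 11 of 63 on the strongest peaks, 12 and 7 without Young Bleo 4, and 7 and 14 without Young Sham 5. Within 50 kb of these genes 11 were higher and 6 lower (9.91% and 5.41%). The higher regions lay at the ligand genes Pgf, Angpt1 and Vegfc, the co-receptor gene Nrp2 and the receptor gene Tie1. Pgf 15.5 kb upstream ranked 0.0129, 0, 0, 0 and 4.13 in Young Sham and 52.6, 42.0, 59.0 and 44.9 in Young Bleo (48.8 points, SE 7.57, adjusted p = 0.000431). Nrp2, neuropilin-2, was higher at its promoter by 12.8 points and at 2 further regions, and Tie1, an orphan receptor of the Tie family, 10.6 kb upstream by 30.04 points (adjusted p = 0.00693). The lower regions belonged to 3 genes. The promoter of Angpt2, the context-dependent antagonist of the Tie2 receptor, ranked 65.0, 66.2, 62.0, 59.6 and 52.7 in Young Sham and 18.5, 42.8, 21.2 and 45.2 in Young Bleo (-29.2 points, SE 6.34, adjusted p = 0.0055), and 2 further regions nearest to Angpt2 were lower too. Tek, the gene of Tie2, was lower just downstream of its TSS, in the UTR, by -23.6 points (adjusted p = 0.0315), and Kdr, VEGF receptor 2, at 2 regions by -34.4 and -26.97 points (adjusted p = 0.00882 and 0.0233, and 0.499 and 0.0119 on the strongest peaks).

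General capillary markers had 5 regions higher and 7 lower of 114 (4.39% and 6.14%, median -1.25 points). Their counts depended on the mice, with 3 and 11 without Young Sham 5 and 10 and 7 without Young Bleo 4, and on the assignment, with 7 higher and 4 lower of the 102 regions within 50 kb of these genes (6.86% and 3.92%). The chemokine gene Cxcl12 was higher at its promoter by 19.9 points (SE 3.73, adjusted p = 0.00186), and Aplnr, the apelin receptor of general capillary cells, 9.59 kb from its TSS by 31.9 points (adjusted p = 0.00388). Kit, the stem cell factor receptor, was lower 102 kb upstream, where Young Sham ranked 80.7, 79.8, 72.8, 79.5 and 71.5 and Young Bleo 58.8, 70.0, 60.8 and 65.5 (-13.1 points, SE 2.94, adjusted p = 0.00697). Aerocyte markers had 6 regions higher and 8 lower of 92 (6.52% and 8.70%, median 1.34 points), and 6 and 11 without Young Sham 5. On the strongest peaks 4 were higher and 7 lower of 44, and within 50 kb of aerocyte genes 10 were higher and 4 lower of 89 (11.2% and 4.49%). No share over all regions was computed for the 50 kb assignment of these lists. Fibin, a marker of these cells, was lower 109 kb upstream, with ranks of 57.7, 57.7, 59.9, 62.7 and 52.0 in Young Sham and 0, 0, 6.72 and 31.5 in Young Bleo (-48.4 points, adjusted p = 0.000462). Young Bleo 4 kept the highest of the injured ranks at Fibin. Prx, periaxin, was lower at its promoter by -34.7 points and higher at 2 other regions.

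Inflammation and leukocyte adhesion genes had 8 regions higher and 3 lower of 91 (8.79% and 3.30%, median 2.78 points), and 5 and 4 without Young Sham 5. On the strongest peaks 6 were higher and 2 lower of 47, and the median changed sign to -2.36 points. The region 19.1 kb upstream of Vcam1 (chr3:116148566-116149061) ranked 64.0, 64.1, 66.0, 63.5 and 55.1 in Young Sham and 0, 26.1, 10.8 and 11.5 in Young Bleo (-50.4 points, SE 6.72, adjusted p = 0.000118, and 0.000186 on the strongest peaks). All injured mice, the one in the sham lane included, lay well below the sham mice at Vcam1. Il1a, interleukin-1 alpha, was lower 5.95 kb upstream, with a peak in 5 of 5 Young Sham and 0 of 4 Young Bleo (-35.9 points, adjusted p = 0.0151, but 0.41 on the strongest peaks). Higher regions lay at Nfkb1 (33.1 points) and Nfkbia (22.7 points), a subunit and an inhibitor of NF-kB, and at the promoter of Osmr, the oncostatin M receptor (17.9 points). Nfkbia had 2 higher regions and also 1 lower. Interferon response genes had 4 regions higher and 2 lower of 65 (6.15% and 3.08%, median 1.29 points, 3 and 4 without Young Sham 5), with Ifit2 higher by 17.3 points and Irf8 lower at 2 regions. On the strongest peaks 5 interferon regions were higher and 6 lower of 39 (median -0.84 points). Cell cycle and senescence genes had 5 regions higher and 3 lower of 76 (6.58% and 3.95%, median 0.891 points), and 3 and 4 without Young Sham 5. On the strongest peaks 3 were higher and 5 lower of 48 (median -0.134 points). Upstream of Cdkn2b, 2 regions were lower. The one 175 kb upstream (chr4:89485838-89486410) ranked 74.8, 74.7, 65.5, 77.2 and 76.2 in Young Sham and 49.4, 51.0, 52.2 and 54.8 in Young Bleo (-21.9 points, SE 3.4, adjusted p = 0.000433), and the one 134 kb upstream was lower by -23.0 points (adjusted p = 0.00322).

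Lists of other cell types held few regions, and their shares of calls were not uniformly below those of all regions. None of 30 fibroblast and 18 leukocyte marker regions was called by rank, 1 of 17 pericyte and smooth muscle regions (5.88%) was lower (Myh11, -24.3 points, adjusted p = 0.00545), and of 15 epithelial regions 1 was higher (6.67%, Krt8, 9.51 points) and 1 lower (6.67%, Hopx, -41.7 points, with ranks of 54.5 to 66.7 in Young Sham and 0 to 39.8 in Young Bleo). By presence, an intronic region of the leukocyte gene Csf1r, a macrophage growth factor receptor, had a peak in 4 of 4 Young Bleo and 1 of 5 Young Sham (two-sided Fisher's exact p = 0.0476). Within 50 kb of leukocyte genes 3 of 55 regions (5.45%) ranked higher and none lower, where 6.88% and 3.75% of all tested regions did. On the strongest peaks 2 of 11 leukocyte, 2 of 5 pericyte and 2 of 11 epithelial regions were lower, where 10.6% of all tested regions were. Lymphatic markers had 2 regions higher and 1 lower of 32 (6.25% and 3.12%, median 4.07 points), at Maf, Prox1 and Mmrn1. Pan-endothelial markers had 11 higher and 3 lower of 119 (9.24% and 2.52%, median 0.404 points), with Egfl7, Tie1 and Cd34 among the higher and Tek and Eng the lower genes. On the strongest peaks 9 pan-endothelial regions were higher and 6 lower of 68, and the median changed sign to -0.576 points. The genes that the study names beside its ATAC-seq data had 23 regions higher and 5 lower of 117 (19.7% and 4.27%, median 4.02 points). These genes were chosen by the study on the same samples, so this share is not independent evidence of their direction. Some of them, such as Hspg2, Bmp2, Notch1 and Cdh13, also count in the lists above, whose shares are to that extent not independent either.

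Among the 12 most clearly closed regions the differences ran from -48.7 to -60.2 points. Every one had a peak in all 5 Young Sham, and 3 had none in Young Bleo. In the other 9 a single Young Bleo list had a peak, which was Young Bleo 4 in 8 of them. A region 236 kb upstream of Tshz3, a zinc finger transcription factor (chr7:36462257-36462947), ranked 66.0, 65.9, 65.4, 74.7 and 59.5 in Young Sham and 0, 0, 0 and 24.5 in Young Bleo (-60.2 points, SE 7.02, adjusted p = 4e-05). An intronic region of Nrg3, a neuregulin, ranked 72.4, 57.7, 56.6, 64.8 and 63.5 in Young Sham and 0, 0, 0 and 11.5 in Young Bleo (-60.1 points, SE 6.88, adjusted p = 3.28e-05). Both regions kept a weak peak only in the injured mouse of the sham lane. The region 48.0 kb upstream of Wnt11, a non-canonical Wnt ligand, had a rank of 62.9, 54.7, 41.2, 61.3 and 38.9 in Young Sham and no peak in any Young Bleo (-51.8 points, adjusted p = 0.000362), and an intronic region of Mvb12b, an endosomal sorting protein, was likewise absent from all 4 (-51.5 points). An intronic region of Unc5c, a netrin receptor, differed by -49.3 points, and one within Dmd, which encodes dystrophin, by -57.1 points.

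Several genes had more than 1 changed region. Of 16873 genes with a tested region, 2414 had at least 1 higher, 1437 at least 1 lower and 257 both, and 117 had 3 or more higher against 27 with 3 or more lower. Those with 5 higher regions included Ncoa7, a nuclear receptor coactivator, Irx3, a homeobox factor, Klf10 and Foxc1. At Ncoa7 the clearest of the 5 ranked 0, 0, 0, 11.4 and 0 in Young Sham and 65.7, 69.3, 67.8 and 47.2 in Young Bleo (60.2 points, adjusted p = 8e-05). The promoter of Irx3 ranked 10.6, 15.7, 8.08, 0 and 0 in Young Sham and 40.9, 57.0, 63.0 and 32.9 in Young Bleo (41.6 points, adjusted p = 0.00316, and 0.0758 on the strongest peaks). Genes with most lower regions included Ptprd, a receptor phosphatase gene that held 4 of them, each nearest to the TSS of Gm42303 inside it, and Grb14, an adaptor of insulin receptor signalling, with 3. The Grb14 promoter, open in every mouse, ranked 95.7, 95.3, 94.6, 93.7 and 92.8 in Young Sham and 84.4, 83.6, 85.9 and 90.4 in Young Bleo (-8.35 points, SE 1.18, adjusted p = 0.000203). Adgra3, an adhesion G protein-coupled receptor, was lower at 3 intronic regions, by -17.7, -33.8 and -6.65 points, the last of which moved to 0.154 points when peaks were ranked by fold enrichment.

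Promoters were a small share of the opened and closed regions. Of the tested regions 22.6% were promoters, 36.1% intronic and 34.3% intergenic, whereas of the 759 opened regions 3.29% were promoters, 44.1% intronic and 50.1% intergenic, and of the 316 closed ones 2.22%, 46.2% and 47.2%. The median distance to a TSS was 11.9 kb over all tested regions, 30.6 kb for opened and 27.2 kb for closed ones. By rank alone it was 16.67 kb for higher and 16.85 kb for lower regions. Regions with a peak in all 9 lists cannot count as opened or closed, so the definition itself shapes the shares and distances of those sets. The 25 opened promoters included that of Sox6, a SOX factor (42.2 points, with a peak in 4 of 4 and 0 of 5 lists), that of Nav3, a neuron navigator (39.4 points), and that of Celsr1, a planar polarity cadherin (32.4 points), although on the strongest peaks these 3 did not pass (adjusted p = 0.131, 0.346 and 0.422). The 7 closed promoters included those of Dlc1, a GTPase-activating protein (-25.2 points), and F2rl2, the protease-activated receptor 3 (-24.8 points). By rank alone, 20.2% of higher and 20% of lower regions were promoters. Regions with a peak in all 9 lists made up 53.7% of the higher and 60.9% of the lower calls, against 54.2% of all tested regions. Among calls with a peak in all 9 lists the median differences were 12.02 and 12.6 points in size, against 32.9 and 32.3 for those with a peak in fewer lists.

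Sequence motifs differed between higher and lower regions outside promoters. These shares are descriptions with no test, since a match to 7 letters is not a bound site. The SOX motif was in 6.67% of all 33993 tested regions, in 14.3% of the 2407 higher and in 4.25% of the 1317 lower ones. The AP-1 motif followed the same order with 9.53%, 19.9% and 7.90%, and the KLF motif with 7.74%, 11.8% and 6.0%. The forkhead motif went the other way, with 5.23% of all, 3.61% of higher and 15.3% of lower regions. The ETS motif was common throughout and was in 22.6% of all, 25% of higher and 31.7% of lower regions, or in 42.9%, 46.7% and 55.0% with the shorter core AGGAAG. TEAD matches were in 11.2%, 11.8% and 12.1%, MEF2 matches in 1.21%, 2.24% and 2.05%, and CTCF-type matches in 8.45%, 6.36% and 3.64%. Mean GC content differed little, at 52.1% of all, 51.1% of higher and 50.6% of lower windows.

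**Figure D5:**
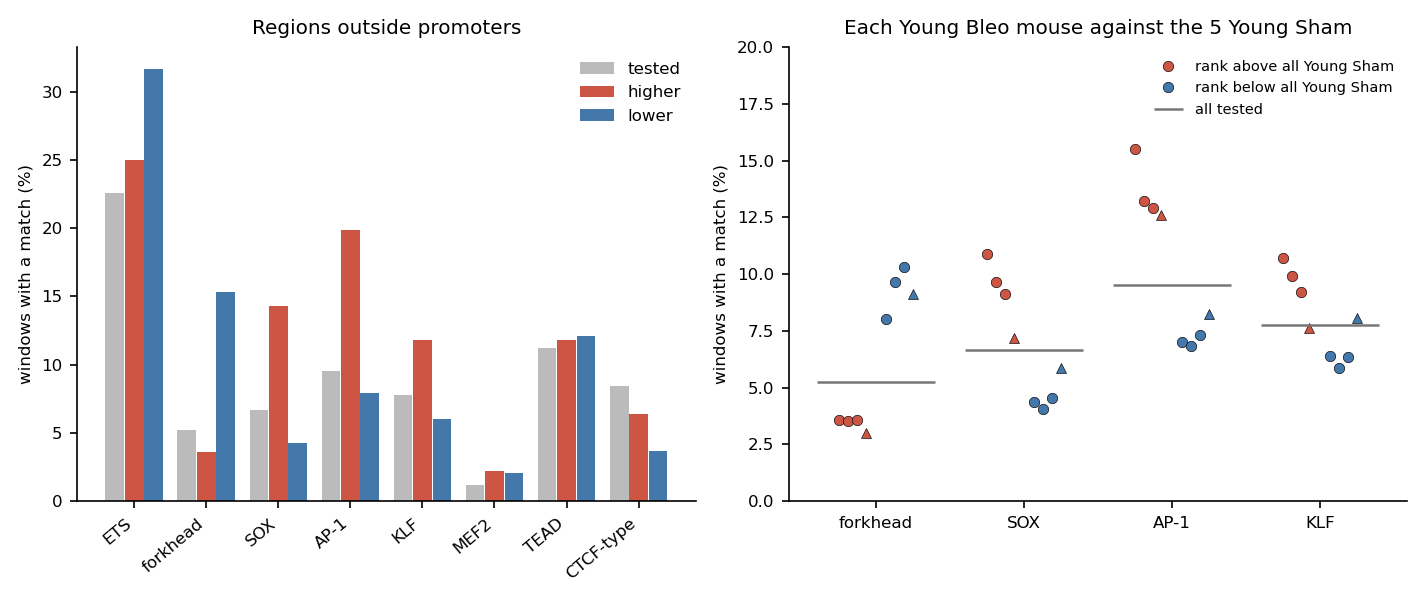
Percent of 200 bp windows outside promoters with a match to each motif (y axis), among all tested, higher and lower regions (left), and, for each Young Bleo mouse, among regions where that mouse ranked above (red) or below (blue) all 5 Young Sham, whatever the other mice did (right; triangle, Young Bleo 4; grey line, all tested regions). SOX, AP-1 and KLF matches are most frequent among higher regions and forkhead matches among lower ones, and for the triangles forkhead is at 3.02% above and 9.13% below, and KLF at 7.63% and 8.07%.

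Read the other way, 15.1% of regions with a SOX motif ranked higher against 6.51% of those without, 14.8% against 6.27% for AP-1, and 10.8% against 6.77% for KLF. Of regions with a forkhead motif 11.4% ranked lower, against 3.46% of those without. The 240 regions with both a SOX and an AP-1 motif were higher in 22.9% and lower in 1.25%, and the 419 with both a forkhead and an ETS motif were lower in 13.8%. The motif shares of single mice, each set against the same 5 Young Sham, are given as values. Of regions where Young Bleo 4 ranked above all Young Sham, 12.6% held AP-1 and 7.17% SOX, against 8.23% and 5.84% of those where it ranked below all, and forkhead was in 3.02% of the former and 9.13% of the latter. For KLF these shares were 7.63% and 8.07% in Young Bleo 4, and 10.7% and 6.39% in Young Bleo 1. The forkhead motif was in 8.0%, 9.65% and 10.3% of the regions where Young Bleo 1, 2 and 3 ranked below all Young Sham.

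The same regions were also read in the 18-month mice, where the lane code was again confounded with treatment: all 5 Aged Bleo were in lane 6, and 3 of 4 Aged Sham in lane 7. Aged Bleo and Aged Sham were compared within a limma fit of all 18 mice in 4 groups. Over the 759 opened regions, 92.0% had a higher mean rank in Aged Bleo than in Aged Sham, against 57.0% of all tested regions. This fit called none of the 759 higher in Aged Bleo, and the median difference was 12.5 points against 31.8 points at 2 months. Over the 316 closed regions, 76.6% were lower in Aged Bleo against 34.8% of all, with medians of -5.41 and -32.4 points, and 3 of the 316 were called lower in the aged mice. Both sets were chosen for their difference at 2 months, which enlarges the medians at that age, so the sizes at the 2 ages cannot be compared. Over all tested regions the aged mice had 142 called higher (0.324%) and 166 lower (0.378%). The aged mice varied among themselves, since 93.5% and 91.0% of the opened regions had a peak in Aged Bleo 1 and 2 and 25.3%, 3.43% and 15.4% in Aged Bleo 3, 4 and 5. The opened regions had a peak in 2.64% to 11.3% of cases in the Young Sham lists, 82.1% to 100% in the Young Bleo lists and 6.19% to 39.8% in the Aged Sham lists. No region passed an adjusted p of 0.05 in limma's test of the difference between the 2 ages in the effect of bleomycin, where 2964 had an unadjusted p of at most 0.05 and the smallest adjusted p was 0.125.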

How the data were processed

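ATAC-seq libraries of sorted lung ECs from 9 mice were compared as deposited peak lists, 1 per mouse, with those of 9 older mice used to define regions. According to the study's methods, the authors aligned reads with BWA 0.5.9 to mm10, removed duplicates with Picard 1.67 and called peaks per sample with MACS2 2.0.10 at an FDR of 1%. Each deposited list gives, per peak, a fold enrichment (a ratio over local background), a -log10 p, a -log10 q and a score by the authors' caller, and the score was not used. The lists hold no reads, so read depth is not given in the sources used here, the study's own read-based model was not repeated, and the number of peaks limits precision. Peaks sharing 1 bp or more were joined into regions, of which those present in 2 or more lists were kept.

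Rank in list was compared with limma 3.58.1 (R 4.3.3, trend and robust empirical Bayes, Benjamini-Hochberg adjustment) on 43891 regions with a peak in at least 2 of the 9 young lists, presence with two-sided Fisher's exact tests, and list sizes with two-sided exact permutation tests (Python 3.11.15, scipy 1.17.1). The scripts were tested on simulated data. Nearest TSS and place came from the RefSeq annotation of GRCm38.p6, where promoters spanned 1000 bp before and 100 bp after a TSS, and sequences were read with pysam 0.24.0. Each list came from a separate mouse. The sexes of single mice were not used.

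Named regions were, in each direction, the 12 with the smallest limma p that passed both tests and had an unadjusted p of at most 0.05 on the strongest peaks, the 8 genes with most called regions, and the called regions of each gene list with the lowest p. Other regions of list genes, promoters opened or closed and the windows printed were added after the values were seen. Members, lists and motifs were chosen with earlier results of these data known. Alternatives comprised the strongest peaks, stricter thresholds, fold enrichment ranks, other fits, lane as a term, a replicate block and leaving out each mouse.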

Additional observations from a re-analysis of the deposited data

Results flagged for a closer look

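In 2 of 14 checks for a sample far from the rest of its group, each of which chance meets about 1 time in 20, a Young mouse stood apart. Young Bleo 4 had a peak in 82.1% of the 759 opened regions, whereas Young Bleo 1 to 3 had 97.6%, 99.5% and 100%. By the code in the list names it was the Young Bleo mouse in the lane of the sham mice and its list had 33980 peaks, close to the 34086 of Young Bleo 1. Young Sham 5 had a peak in 92.1% of the 316 closed regions, against 99.7% to 100% in the other 4 Young Sham, and its list was the shortest of the 9 with 30073 peaks. Both sets of regions were chosen with these mice among the samples, and the part of lane or list length in these values was not tested.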

How the results depend on the processing

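Against 3018 regions higher and 1646 lower by rank, the strongest peaks gave 2693 and 2643, ranks by fold enrichment 1476 and 877, plain empirical Bayes without a trend 1637 and 870, and a fit of all 18 mice in 4 groups 1092 and 917. With lane as a term, which leaves 1 Young Bleo mouse in the sham lane, 10 were higher and 6 lower. Leaving out each mouse in turn gave 1591 to 3921 higher and 905 to 2526 lower, the highest counts without Young Bleo 4 and Young Sham 5, the lowest without Young Bleo 2 and Young Bleo 1. There were 1017 regions with a peak more often in Young Bleo and 888 with one less often on the strongest peaks, against 1885 and 928, and 514 to 1107 and 236 to 494 without single mice, where fewer mice raise the smallest possible p. Deviations of same-numbered Young Bleo and Young Sham mice had r from -0.0507 to 0.0233 over 4 pairs, within the -0.0961 to 0.075 of the other pairs. With so few pairs these values cannot show whether the numbers pair the mice. A replicate block, fitted without Young Sham 5, gave 1965 higher and 1813 lower, of which 1940 and 1425 were called in the main fit. Leaving out Young Sham 5 with no block gave 2546 and 2526, so the block counts hold the effect of both changes. The cause of these shifts was not tested.

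Of the 161 named regions, 19 of 143 with a value lost their call on the strongest peaks, and of all 161, 49 with fold enrichment, 36 with plain empirical Bayes, 60 with all 18 mice in 4 groups, 17 with the block, 159 with lane as a term (every one called by rank, the other 2 being uncalled regions at Thy1 and Csf1r) and 5 to 30 when a mouse was left out. With lane as a term the difference was at least as large in 13 of the higher and 20 of the 55 lower regions. The Adgra3 region 89370 bp from the TSS reversed, at 0.154 points with fold enrichment (adjusted p = 0.988). For gene lists and motifs, the strongest peaks and the fits without Young Bleo 4 or Young Sham 5 were chosen after seeing the data. They moved 19, 10 and 12 of 48 list counts by more than 1.5 times, and 3, 1 and 0 of 18 motif shares out of their binomial confidence interval. Read depth was not available, so a missing peak may be a weak one.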
